A study of Mus musculus with 4 samples.

Results

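The myogenic transcription factors described here are 9 genes: Myf5, Myod1, Myog and Myf6, which encode the myogenic regulatory factors (MRFs), Mef2a, Mef2c and Mef2d of the MEF2 family, and the paired-box genes Pax7 and Pax3. They were chosen by name, with earlier results of these data known. All probe sets that the platform annotation assigns to any of these symbols were taken. The members make up 9 of the 12393 genes named on the array, with 19 probe sets. Expression was measured on Affymetrix arrays in C2C12, an established mouse myoblast line. In all samples the cells were held for 48 hours in suspension in semi-solid methyl cellulose, which takes them out of the cell cycle into the reversible resting state G0. One group of 2 arrays had no addition (control) and the other group of 2 arrays was given purified Wnt3A, a secreted ligand of the canonical Wnt pathway, at 50 ng/ml. Both groups come from 1 cell line kept in culture, without the fibre and basal lamina that surround a muscle stem cell. The labels call the replicates biological and do not say whether cultures were started separately, so a p-value here measures the spread between these arrays.

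MRFs are basic helix-loop-helix proteins that pair with E proteins and bind E-boxes, the short DNA motif CANNTG, in front of muscle genes. Myf5 and Myod1 set the myoblast identity, Myog drives withdrawal into terminal differentiation, and Myf6 (MRF4) acts mainly in later differentiation and in fibres. MEF2 proteins do not start the programme alone but act together with MRFs on the same genes, and Pax3 and Pax7 act upstream, Pax7 being the usual marker of the muscle stem (satellite) cell. The series title concerns gene networks of β-catenin, the effector of Wnt3A, in quiescent myogenic cells, and the comparison of Wnt3A with control asks how these regulators stood when the pathway was stimulated in G0.

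Signals are log2 values per probe set. A difference is Wnt3A minus control, errors of means are SDs with n = 2 arrays per group, and the small number of arrays limits the precision. Array medians lay between 4.15 and 4.22. Axin2, a direct target that reports canonical Wnt signalling, had control signals of 3.25 and 3.21 and Wnt3A signals of 5.13 and 6.14 on its brighter probe set, so both arrays labelled Wnt3A exceeded the controls. All 8 markers listed for myoblasts, Myf5 and Myod1 among them, lay above the limit for dim probe sets, a log2 signal of 2.01 below which the lowest 25% of probe sets fell, and 7 of them lay above the array median, both by their mean over the 4 arrays; Met, the lowest, had a control mean of 1.81, under the limit. No marker listed for endothelial cells, macrophages and leukocytes, epithelium or adipocytes lay above that median in its mean over the 4 arrays, though Krt19, Csf1r and Pparg did on single arrays, and Pecam1, Cdh5, Ptprc, Itgam, Epcam, Cdh1 and Adipoq were under the dim limit. The summed linear signal of 5 adipocyte markers was 44.2 and 32.2 in control against 18.6 and 19.1 with Wnt3A, and that of 6 macrophage and leukocyte markers 30.5 and 30.2 against 32.5 and 57.8. The summed linear signal of 8 fibroblast markers was 869 and 917 in control and 546 and 395 with Wnt3A. Of the 8, 6 were lower with Wnt3A without overlap, Dpt and Lum among them under the dim limit. So were 4 of the 5 adipocyte markers, Lep and Adipoq among them under that limit. Among all genes, each by its brightest tested probe set, 19.6% were. The summed linear signal of 6 smooth muscle and pericyte markers was 2624 and 3415 in control and 3566 and 1334 with Wnt3A. The part of these shifts in the results below was not tested. In such bulk RNA, fewer cells that express a gene and less RNA per cell cannot be told apart.

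The promoter windows of Myf5 and Myog are shown because the differences of these genes had opposite signs and the lowest p among the members. They hold 250 bases before and 50 after the start site in RefSeq annotation of build GRCm38.p6, where 6 of the 9 genes had a window. Myf5 lies at chr10:107486085-107486384 on the minus strand and Myog at chr1:134289754-134290053 on the plus strand. Capitals mark the E-boxes CANNTG and the TATA box letters TATAAA, searched on both strands.
Myf5: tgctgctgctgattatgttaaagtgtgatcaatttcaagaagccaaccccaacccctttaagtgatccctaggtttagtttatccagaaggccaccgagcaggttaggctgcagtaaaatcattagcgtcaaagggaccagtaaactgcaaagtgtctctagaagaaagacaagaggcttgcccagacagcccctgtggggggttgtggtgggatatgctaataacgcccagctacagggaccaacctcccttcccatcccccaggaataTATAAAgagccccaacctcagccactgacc
Myog: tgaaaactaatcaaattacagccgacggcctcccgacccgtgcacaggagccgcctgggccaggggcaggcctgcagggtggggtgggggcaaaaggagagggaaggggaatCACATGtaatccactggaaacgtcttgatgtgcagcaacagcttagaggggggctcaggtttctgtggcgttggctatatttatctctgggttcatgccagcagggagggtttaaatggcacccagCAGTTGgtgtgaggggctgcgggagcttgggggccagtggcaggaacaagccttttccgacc
The Myog window held 2 E-boxes, CACATG at position -138 and CAGTTG at position -12 from the start site, and the Myf5 window held 0. At least 1 E-box was present in 72.3% of all 32851 windows of this length, so its presence is common. The Myf5 window held TATAAA at position 21, after the annotated start site, and 13.6% of all windows held these letters. The consensus for MEF2, found in 3.19% of windows, had no match in either window and 1 in that of Mef2a, and the TATA letters can fall inside that consensus. The MEF2 search was strict, with A or G required as the last letter. The Myog window holds CTATATTTAT, which departs from the consensus in that last letter only, and such near matches were not counted. For the partners of β-catenin, TCF and LEF, the letters CTTTGAA or CTTTGAT or CTTTGTA or CTTTGTT were searched on both strands. They were found in 16.9% of all windows, in neither the Myf5 nor the Myog window, and in 1 of 3 windows of Mef2c. These are matches of letters in short windows and say nothing of binding or of distant enhancers.

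Across the 19 probe sets, mean Myf5 was higher with Wnt3A while mean Myod1 and Myog were lower, each by more than 2-fold. For Myod1 and Myog that size hung on 1 array. Myod1 differed by -0.65 without Wnt3A replicate 2 and Myog by -0.96 without control replicate 2, both under 2-fold. The MEF2 genes stood close to their control levels in their means, though the Wnt3A arrays lay up to 2.27 apart. None passed the test: 0 of 19 member probe sets had an adjusted p under 0.05 in limma, as did 0% of all 16969 probe sets tested. At an unadjusted p under 0.05 there were 2 member probe sets, those of Myf5 and Myog, and 839 probe sets in all, or 4.94%. All 19 passed the filter on dim probe sets, Pax7 and Myf6 narrowly. In 5 of the 19 the groups did not overlap, a share of 26.3% that lay below the 33% of all probe sets tested. The Wnt3A arrays were the higher pair in 2 (Myf5 and Pax7), against 15.1% of all, and the lower pair in 3 (Myod1, Myog and a Pax3 probe set), against 17.9%. Pax7 passed the dim limit only through its Wnt3A arrays, its control mean of 1.92 being under it, so its place in these counts came with its selection. Without overlap and at least 2-fold apart were 3 of 19, where 3.03% of all probe sets were, 1.34% higher and 1.7% lower. Members were chosen with earlier results of these data known, so a share above that of all probe sets is not independent evidence. The signs were 9 higher and 10 lower. They depended on scaling: with arrays set to their hybridization controls, which raised the median difference of all tested probe sets from -0.0037 to 0.32, 15 were higher and 4 lower. Without Wnt3A replicate 2 the split was 16 higher and 3 lower, and without Wnt3A replicate 1 it was 6 and 13.

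**Figure D1:**
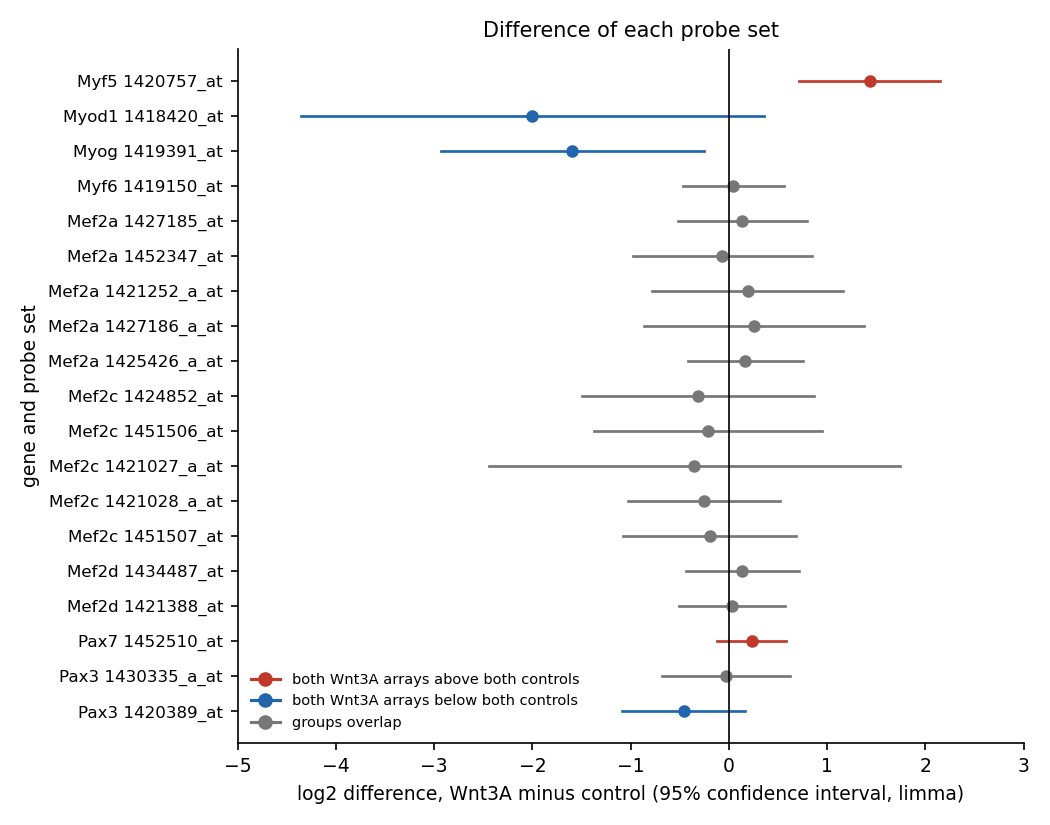
Log2 difference (Wnt3A minus control) of each of the 19 probe sets on the horizontal axis, with the 95% confidence interval of the limma fit, 2 arrays per group; colours mark whether both Wnt3A arrays lay above or below both controls. Only the intervals of Myf5 (0.71 to 2.15) and Myog (-2.93 to -0.26) lie to one side of 0, and neither passed after adjustment over all probe sets.

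Myf5, the determination factor that marks committed but undifferentiated myoblasts, had control signals of 6.57 and 5.98 and Wnt3A signals of 7.77 and 7.65. The Wnt3A arrays lay close together and the lower of them stood 1.08 above the higher control. Means were 6.28 ± 0.41 and 7.71 ± 0.08 (SD, n = 2), which is 2.70-fold higher with Wnt3A. The difference was 1.43 (SE 0.28, 95% confidence interval 0.71 to 2.15; limma adjusted p = 0.629), and by its unadjusted p Myf5 ranked 105 among the 16969 probe sets. Leaving out each array in turn left it between 1.14 and 1.72.

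Myod1, the other determination factor, which also starts differentiation, had control signals of 6.84 and 7.11 and Wnt3A signals of 6.32 and 3.62. The controls were 0.26 apart, while the Wnt3A arrays were 2.70 apart, with replicate 2 far below the other 3 arrays. The difference was -2.0 (SE 0.90, 95% confidence interval -4.36 to 0.35; limma adjusted p = 0.977), a mean 4.0-fold lower with Wnt3A. Its size rested on Wnt3A replicate 2: it was -0.65 without that array and -3.35 without Wnt3A replicate 1.

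Myog, the factor of terminal differentiation, had control signals of 8.0 and 9.27 and Wnt3A signals of 7.42 and 6.66. Both Wnt3A arrays lay below both controls, by 0.58 at the narrowest, which was less than the 1.27 between the controls. Means were 8.64 ± 0.90 and 7.04 ± 0.53 (SD, n = 2), or 3.02-fold lower with Wnt3A. The difference was -1.59 (SE 0.51, 95% confidence interval -2.93 to -0.26; limma adjusted p = 0.919). Leaving out control replicate 2, the array of highest Myog signal, gave -0.96, and leaving out control replicate 1 gave -2.23.

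**Figure D2:**
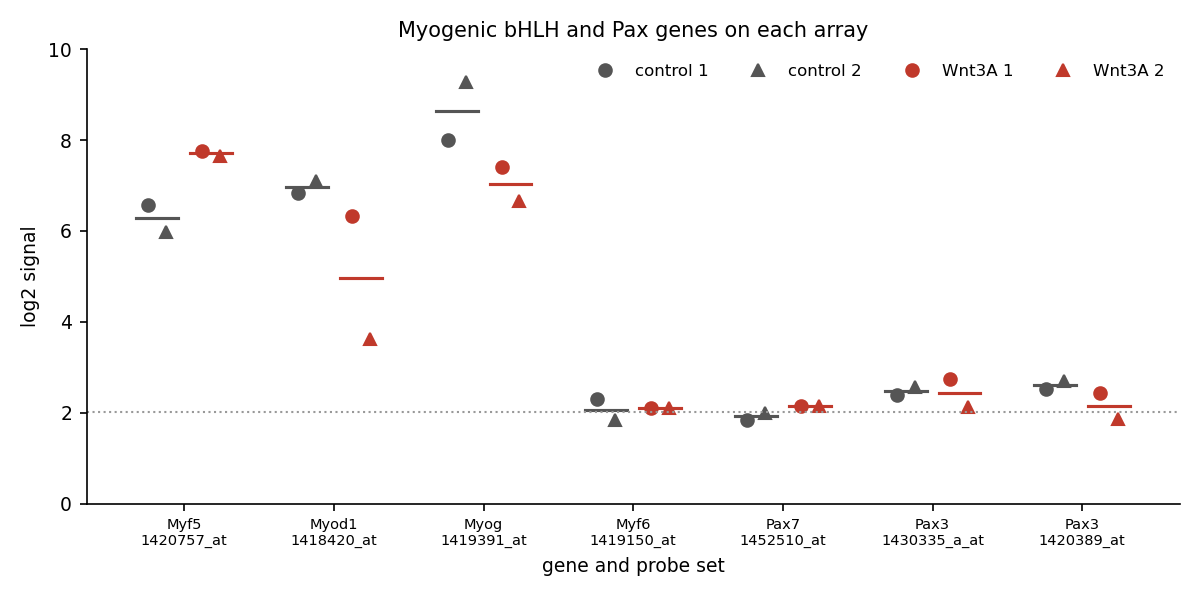
Log2 signal of the MRF and Pax probe sets on each of the 4 arrays (points; grey control, red Wnt3A; circles replicate 1, triangles replicate 2), with group means as bars and the limit for dim probe sets, 2.01, as a dotted line. Myf5 is higher and Myog lower on both Wnt3A arrays, Myod1 is far lower on Wnt3A replicate 2 only, and the Myf6, Pax7 and Pax3 probe sets lie near the limit.

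Myf6, Pax7 and Pax3 were near the lower end of the array. Myf6 had control signals of 2.29 and 1.83 and Wnt3A signals of 2.11 and 2.10, a difference of 0.045 (95% confidence interval -0.47 to 0.56) with overlapping groups. Pax7 had control signals of 1.84 and 2.0 and a signal of 2.15 on both Wnt3A arrays. Its groups did not overlap, but the difference was 0.23 (SE 0.14, 95% confidence interval -0.12 to 0.58; limma adjusted p = 0.977). Myf6 and Pax7 stood at the 26.5 and 25.5 percentile of mean signal, just inside the limit, and under the limit of 2.18 that results when it is set over genes instead of probe sets. Of the 2 Pax3 probe sets, 1420389_at had control signals of 2.52 and 2.71 and Wnt3A signals of 2.44 and 1.87, a difference of -0.46 (SE 0.24). The other, 1430335_a_at, differed by -0.03 with overlapping groups. With no detection calls in the table, such signals cannot be told from background.

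The 3 MEF2 genes, which encode MADS-box partners of the MRFs, were represented by 12 probe sets. In 0 of the 12 did the groups separate, the widest difference was 0.35 in size, and the lowest adjusted p in limma was 0.977. Probe sets of 1 gene share its transcripts and are not independent measurements.

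For Mef2a, 5 probe sets had mean signals from 3.96 to 8.33 and differences from -0.07 to 0.25, 4 of them above 0. The brightest, 1427185_at, had control signals of 8.05 and 8.49 and Wnt3A signals of 8.56 and 8.25, a difference of 0.14 (95% confidence interval -0.52 to 0.79). Wnt3A replicate 1 was the highest array in all 5 Mef2a probe sets, and Wnt3A replicate 2 the lowest in 3. The pair of Wnt3A arrays was thus 0.16 to 1.17 apart, further than the group means on 4 of the 5 (all but 1425426_a_at). Of the 5 intervals, those of 1421252_a_at and 1427186_a_at reached past 2-fold higher, up to 1.16 and 1.37.

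Mef2c, the member most tied to muscle differentiation, had 5 probe sets with differences from -0.35 to -0.19, all below 0. The brightest, 1424852_at, had control signals of 5.5 and 6.03 and Wnt3A signals of 6.0 and 4.90, a difference of -0.32 (SE 0.45, 95% confidence interval -1.49 to 0.86). Wnt3A replicate 2 was the lowest array on all 5 probe sets, by 0.62 to 2.27 below Wnt3A replicate 1. Without it all 5 differences lay above 0, from 0.05 to 0.78, and with arrays scaled to hybridization controls 4 of the 5 did. The widest interval, that of 1421027_a_at, ran from -2.44 to 1.74, so a change of 2-fold in either direction was not excluded on that probe set. The other intervals reached down to -1.49 (1424852_at), -1.37 (1451506_at), -1.03 (1421028_a_at) and -1.07 (1451507_at). A level 2-fold lower was thus not excluded on any of the 5.

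Mef2d varied least of the 3 MEF2 genes. Its brighter probe set, 1434487_at, had control signals of 6.82 and 6.96 and Wnt3A signals of 6.89 and 7.16, a difference of 0.14 (95% confidence interval -0.44 to 0.71). The other, 1421388_at, lay between 3.94 and 4.07 on all 4 arrays and differed by 0.03 (95% confidence interval -0.51 to 0.57). In this fit both intervals lie within 2-fold of the control level in both directions. With hybridization control scaling the differences were 0.46 (SE 0.36) for 1434487_at and 0.35 (SE 0.36) for 1421388_at, and a level 2-fold higher was not excluded.

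**Figure D3:**
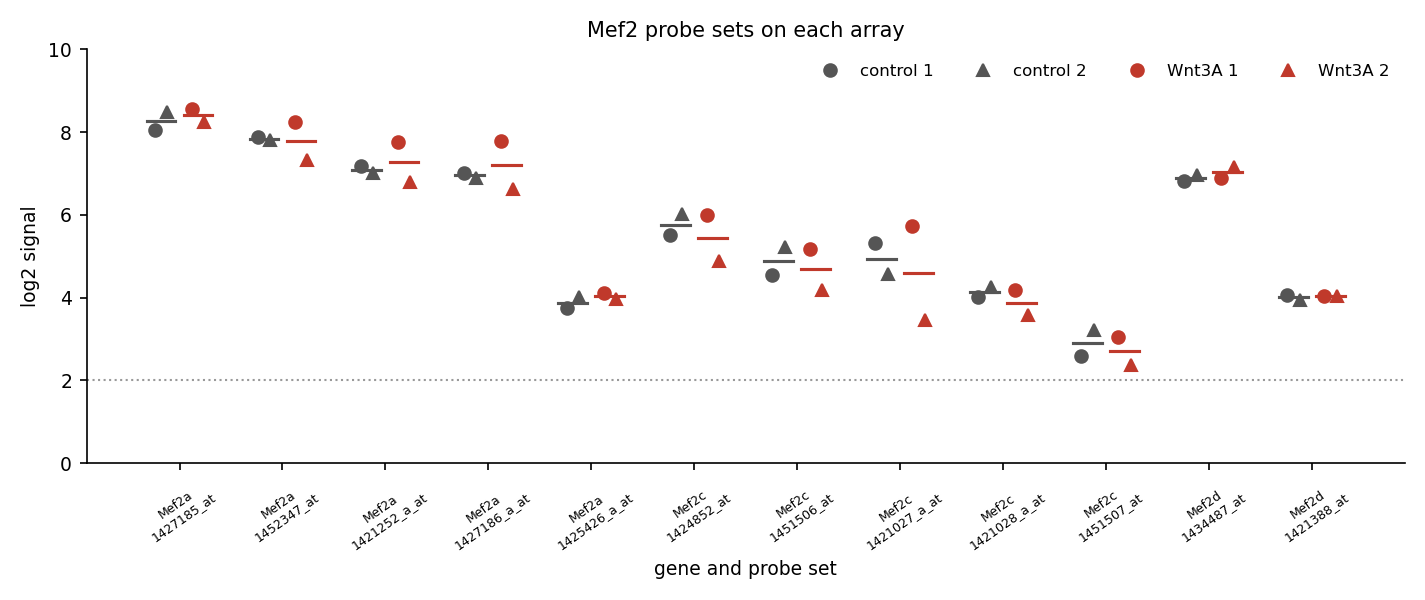
Log2 signal of the 12 Mef2 probe sets on each array (grey control, red Wnt3A; circles replicate 1, triangles replicate 2), with group means as bars and the limit for dim probe sets as a dotted line. Groups overlap on every probe set, and Wnt3A replicate 2 is the lowest array on all 5 of Mef2c.

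Pairs of MRFs were also compared within each array, where the scaling of an array cancels. Levels of different probe sets cannot be set against each other, so the log2 ratio of a pair is given relative to its control mean. The ratio of Myf5 to Myog lay at 0.93 and -0.93 in control and at 2.71 and 3.34 with Wnt3A, a shift of 3.03 or 8.15-fold. The groups did not overlap, and the exact permutation test over the 4 arrays gave p = 0.333 (two-sided), which is the smallest p this design allows. Leaving out each array in turn gave shifts from 2.10 to 3.95. For Myf5 against Myod1, a pair added after the values were seen, the shift was 3.43, from 2.14 and 4.72 on the Wnt3A arrays, with the same exact p of 0.333. Myod1 against Myog, also added, shifted by -0.41 with overlapping groups (exact permutation p = 1.0). Adjusted over the 3 pairs by Benjamini-Hochberg the exact permutation values were 0.5, 0.5 and 1.0. Since Myf5 was above and Myog and Myod1 below both controls on each Wnt3A array, the first and second of these ratios had to separate; they restate the single values free of array scaling and add no support to them.

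**Figure D4:**
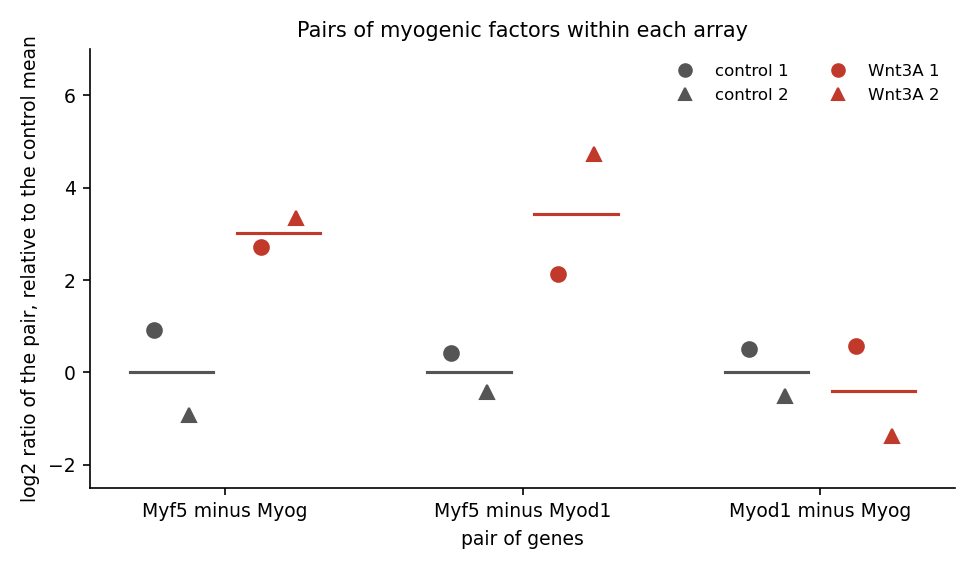
Log2 ratio of each pair of MRF probe sets within an array, relative to the mean of the controls (grey control, red Wnt3A; circles replicate 1, triangles replicate 2; bars are group means). Both Wnt3A arrays lie above both controls for Myf5 against Myog and for Myf5 against Myod1, and the groups overlap for Myod1 against Myog.

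Genes that act below, beside or above these factors were read from 5 lists, each gene by its brightest tested probe set. Among the 9685 genes so represented the Wnt3A arrays were the higher pair in 14.8% and the lower pair in 19.6%, and the median difference was -0.02. No member of any list passed over all probe sets in limma, where 0 of 16969 passed; unadjusted p under 0.05 was reached by 511 of the 9685 genes.

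Most early differentiation genes that MRFs and MEF2 switch on had lower mean signals with Wnt3A, as Myog did, but 0 of 31 passed. Of the 31, 30 were below their control mean, where 52.8% of all genes were, 20 of them without overlap, 1 was above, and the median difference was -0.94. Similar muscle genes were known to be lower in these samples when the list was drawn up, so the count is not independent evidence of its direction. By lowest p these were Ldb3, a Z-disc protein gene (-1.09, SE 0.32), Actn2, the sarcomeric actinin (-0.96, SE 0.30), and the fast myosin light chains Myl1 (-0.94, SE 0.30) and Mylpf (-1.23, SE 0.42). The other Ldb3 probe sets gave -0.61 and, with overlapping groups, -0.76. Leaving out Wnt3A replicate 2 put the brightest Ldb3 probe set at -0.75. Without control replicate 2 Actn2 stood at -0.65 and the light chains at -0.54 (Myl1) and -0.63 (Mylpf). At an unadjusted p under 0.05 there were 8, all lower. Control replicate 2 stood above control replicate 1 by a median of 1.19 over the list, as it did for Myog, and leaving out control replicate 2 gave a list median of -0.43, against -1.48 when control replicate 1 was left out. With hybridization control scaling it was -0.62, with 25 lower and 6 higher. Cdkn1a, the cell cycle inhibitor p21 that accompanies withdrawal, differed by -0.02, and Chrna1, the acetylcholine receptor subunit gene that was the one member above its control mean, by 0.44 with overlapping groups; both were singled out after their values were seen.

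Partners and inhibitors of MRFs went both ways. The 19 tested split into 8 higher and 11 lower around a median of -0.15, and groups did not overlap in 3 higher and 5 lower. Id1, which binds E proteins and keeps MRFs from DNA, had control signals of 9.05 and 9.49 and Wnt3A signals of 8.34 and 8.14, a difference of -1.03 (SE 0.23). Hey1, a Notch effector that represses myogenic genes, differed by -1.0 (SE 0.30). On the higher side stood the repressor gene Bhlhe40 (0.88, SE 0.23) and Hes6, which counters Hes1 and favours differentiation (1.09, SE 0.46, or 0.59 without Wnt3A replicate 2). The other Hes6 probe set gave 0.87 with overlapping groups. Hes1 itself, named here after its value was seen, was also higher without overlap (0.90, SE 0.40). The E protein genes Tcf3, Tcf4 and Tcf12, named here after their values were seen as the obligate partners, differed by -0.24, 0.17 and 0.11, each with overlapping groups. With hybridization control scaling 13 of the 19 were higher.

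Upstream factors and cofactors gave 8 higher and 12 lower of 20, with a median of -0.03; 1 was higher and 4 lower without overlap. The homeobox gene Six4, which acts upstream of MRFs, differed by -0.67 (SE 0.45) and the chromatin remodelling subunit gene Smarcd3 by -0.36 (SE 0.25). Kat2b, an acetyltransferase that acts on Myod1, differed by -0.82 (SE 0.67) with overlapping groups and Meox1 by -0.15 (SE 0.14) at a signal near the dim limit. Wnt3A replicate 2 carried the first and the third of these values: without it Six4 stood at -0.064 and Kat2b at 0.15, and Smarcd3 stood at -0.20 without control replicate 2. Regulators of MEF2 gave 9 higher and 10 lower of 19, with a median of -0.03, and 2 and 5 without overlap. Ppp3ca, the catalytic subunit of calcineurin, had control signals of 9.36 and 9.23 and Wnt3A signals of 8.65 and 8.38, a difference of -0.78 (SE 0.20). Its other probe sets gave -0.87 and -0.81. The kinase genes Map2k5 (-0.40), Camk2g (-0.38) and Camk1 (-0.36) were also lower on both Wnt3A arrays. The other Map2k5 probe sets gave only -0.08 and -0.21 with overlapping groups, and Camk2g was at -0.16 without control replicate 2 and Camk1 at -0.12 without Wnt3A replicate 2. With hybridization control scaling 15 of the 20 upstream genes and 13 of the 19 MEF2 regulators were higher.

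Markers of satellite cells and quiescence, the setting in which Pax7 is usually read, had 7 higher and 10 lower of 17 tested and a median of -0.08, with 5 and 3 without overlap. Met, among those higher without overlap, passed the dim limit only through its Wnt3A arrays, its control mean of 1.81 being under it. Cav1, the caveolar coat protein gene, had control signals of 7.26 and 8.17 and Wnt3A signals of 9.43 and 9.61, a difference of 1.80 (SE 0.35). The receptor gene Notch2 differed by 0.67 (SE 0.19). Vcam1, an adhesion receptor of quiescent satellite cells, had control signals of 8.47 and 7.65 and Wnt3A signals of 6.41 and 1.82, a difference of -3.94 (SE 1.52) in which Wnt3A replicate 2, also the lowest array for Myod1, stood far below the rest. The other Vcam1 probe sets gave -2.46 and -2.32, and without Wnt3A replicate 2 the brightest gave -1.64. Gas1, a growth arrest gene, differed by -1.17 (SE 0.50), which shrank to -0.45 when Wnt3A replicate 2 was left out. With hybridization control scaling 11 of the 17 were higher.

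**Figure D5:**
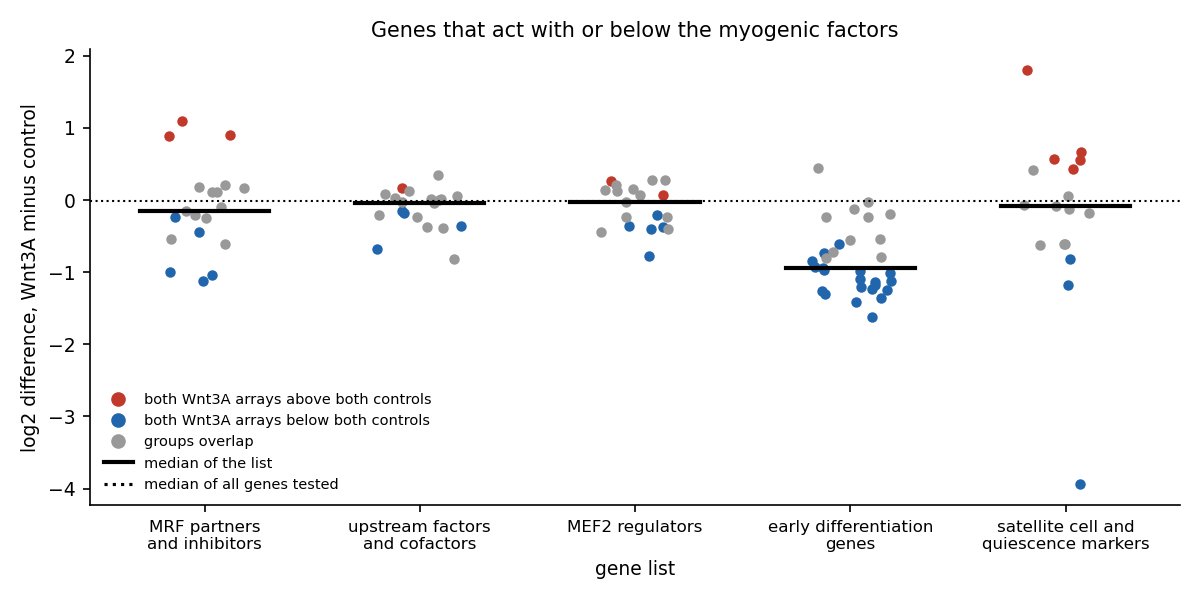
Log2 difference (Wnt3A minus control) of each tested gene of the 5 lists, 1 point per gene at its brightest probe set, spread sideways for legibility; bars are list medians and the dotted line is the median of all 9685 genes. The early differentiation genes lie almost all below 0 with a median of -0.94, while the medians of the other lists lie between -0.15 and -0.03.

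The genes whose pattern over the 4 arrays was most like that of an MRF were found by the root mean square distance of log2 values, each probe set centred on its own mean, among 15401 named probe sets; with 4 arrays such likeness is a description only. Nearest to Myf5 were Il6ra (distance 0.064), Cyp51 (0.12) and Gpm6b (0.14), and 21 probe sets lay within 0.25. The other Il6ra probe set differed between groups by 0.19 only, against 1.36 for the near one, and 1 of the other Cyp51 probe sets by -0.09, against 1.44. Nearest to Myog were Ckm, the muscle creatine kinase gene (0.11), Lsp1 (0.12) and Tle2 (0.15), again with 21 probe sets within 0.25. For Myod1 0 probe sets lay within 0.25, and the nearest were Ifitm1 (0.29), Peg3 (0.33) and Igfbp5 (0.34), whose Wnt3A replicate 2 was also their lowest array. The other Igfbp5 probe set differed by -0.22 only, against -1.50 for the near one.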

How the data were processed

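The authors deposited 1 log2 signal per probe set and array for 22690 probe sets on 4 arrays. Per the submitters' processing notes GCOS and PLIER were used, in unstated versions and roles. The log base was read from the values, 0.50 to 13.23, while the sources used here do not give normalization or filters. The treatment text names Wnt3A for every sample, so titles set the groups. After 64 array controls, the lowest 25% of probe sets by mean signal were left out and 16969 tested in R 4.3.3 with limma 3.58.1 (lmFit, eBayes with intensity trend, two-sided, group as the only term, 4.77 degrees of freedom, Benjamini-Hochberg over all tested probe sets genome-wide, threshold 0.05). Symbols came from the platform annotation, updated by Entrez ID through RefSeq (GRCm38.p6); 691 probe sets with several symbols were not named. The same procedure was tested on simulated data, in 10 runs with 200 changed probe sets each. It called 10.2% of changes of log2 size 1 and 83.4% of those of log2 size 2. Of its calls 8.57% were false, above the threshold of 0.05. The simulated noise was independent between probe sets and arrays, whereas same-numbered real arrays deviated together (r = 0.52). The simulated shares are therefore not the power of the real comparison.

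Members and lists were chosen with earlier results of these data known. Named genes are all members, up to 4 genes of lowest p per list, and the 3 nearest to Myf5, Myod1 and Myog; clones, predicted genes and symbols wholly in capitals and digits were passed over. Of the listed genes, 7 on the array were under the dim limit. Motifs were chosen after the values were seen. Alternatives were a replicate block, median centring, quantile normalization, scaling to 18 hybridization control probe sets, other dim limits, no trend, 1 probe set per gene and each array left out.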

Additional observations from a re-analysis of the deposited data

How the results depend on the processing

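In limma 0 member probe sets passed under each of the 12 other fits, with 1 to 5 of them at an unadjusted p under 0.05. Of all probe sets tested, 83 passed with the replicate number as a block and 68 with hybridization control scaling; among the genes of the lists that included Cav1 only. The labels do not say that equal numbers pair the arrays, and same-numbered arrays deviated together (r = 0.52 across probe sets, which are not independent replicates). With that block the adjusted p in limma was 0.0765 for Myf5, 0.262 for Myog and 0.324 for Myod1. Over all 12 fits it ranged from 0.0746 to 1.0 for Myf5, 0.262 to 1.0 for Myog and 0.224 to 1.0 for Myod1. Over all 12 fits Myf5 lay between 1.14 and 1.75, Myog between -2.23 and -0.96 and Myod1 between -3.35 and -0.65, each in its direction. Fits without 1 array set a lone array against a pair and assume that it varies like the other group.

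Of 132 values of member probe sets under the 8 settings that kept all arrays, 6 changed sign, all with hybridization control scaling, and none was past the threshold: Mef2a 1452347_at became 0.25, Mef2c 0.0024 (1424852_at), 0.11 (1451506_at), 0.061 (1421028_a_at) and 0.12 (1451507_at), and Pax3 1430335_a_at 0.29. Of 76 values with 1 array left out, 17 changed sign. The ranges were -0.18 to 0.27 for Myf6; -0.084 to 0.35 (1427185_at), -0.52 to 0.39 (1452347_at), -0.29 to 0.67 (1421252_a_at) and -0.33 to 0.84 (1427186_a_at) for Mef2a; -0.87 to 0.24 (1424852_at), -0.71 to 0.29 (1451506_at), -1.49 to 0.78 (1421027_a_at), -0.57 to 0.051 (1421028_a_at) and -0.54 to 0.15 (1451507_at) for Mef2c; -0.033 to 0.10 for Mef2d 1421388_at; and -0.34 to 0.28 for Pax3 1430335_a_at. With 1 array left out, list medians ran from -0.20 to 0.016 for MEF2 regulators and from -0.45 to 0.29 for satellite cell markers. With hybridization control scaling, which moves all genes up, the medians of partners (0.17), upstream factors (0.29), MEF2 regulators (0.29) and satellite cell markers (0.24) changed sign. The causes were not tested. The Myf5 to Myog shift of 3.03 is by arithmetic equal with the replicate block; it was 1.78 in replicate 1 and 4.27 in replicate 2. Myf6, Pax7 and Pax3 are limited by signals near background.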
